A study of Rattus norvegicus with 7 samples.

Results

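Interneurons are the local inhibitory cells of the brain, and the calcium-binding proteins and peptides they make have long served to tell their classes apart. The genes described here are 9 in all: the calcium buffers Pvalb, Calb1 and Calb2, the calcium sensor Hpca, the peptide genes Vip and Cck, the secreted glycoprotein gene Reln, the transcription factor gene Lhx6 and the enzyme gene Nos1. They were chosen by symbol, and all 9 were found in both expression tables, among 15889 symbols that the tables share. Transcript levels came from 7 RNA sequencing libraries of male Sprague Dawley rats, 4 of hippocampus and 3 of hypothalamus. The rats were 2 months old at the start and had eaten an omega-3 fatty acid diet with docosahexaenoic acid (DHA) for 6 weeks. Every library is from a DHA-fed animal, and chow-fed controls were not analysed here, so the values carry no estimate of a diet effect. The study's subject was DHA and the transcriptome and DNA methylation of both regions. Libraries were compared here within a tissue and across tissues.

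Parvalbumin, calbindin (Calb1) and calretinin (Calb2) bind calcium through EF-hand loops and limit how far a calcium signal spreads. In hippocampus, parvalbumin marks fast-spiking basket and axo-axonic cells, while VIP, calretinin and cholecystokinin mark other interneuron classes. Lhx6 directs the development of interneurons born in the medial ganglionic eminence, among them those that make parvalbumin or somatostatin. These genes are not markers of interneurons alone: calbindin is also made by dentate granule cells and a share of pyramidal cells, hippocalcin (Hpca) is abundant in pyramidal cells, and several members are made by hypothalamic neurons that are not local interneurons.

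Values were FPKM as deposited, which are scaled to gene length, so that levels of different genes can be set side by side within a table. The FPKM of a library added up to 370020 to 391349 in hippocampus and 443335 to 471484 in hypothalamus. Fragment counts behind each value are unknown. Each tissue has its own table with its own locus numbering, so the tables were treated as normalized separately and no test was run across them. To set the tissues side by side, libraries were first brought to the same total of 1000000 over shared symbols. A gene counted as higher in 1 tissue if its lowest library there exceeded the highest library of the other tissue and the means of log2(rescaled FPKM + 1) were at least 2-fold apart. On that scale differences of low genes are understated. Replicate 1 of each tissue stood apart over all genes. Across symbols, which are not independent, Pearson r with the other libraries was 0.907 to 0.939 in hippocampus and 0.936 to 0.941 in hypothalamus, against 0.962 to 0.975 and 0.972 among the others. Results that rest on replicate 1 are therefore also given without it. The labels were set beside defining genes. Slc17a7, the vesicular glutamate transporter of pyramidal cells, had a mean of 671 FPKM in hippocampus and 0.595 FPKM in hypothalamus. Pomc, the pro-opiomelanocortin gene, is made by arcuate neurons and by pituitary cells, and had 1.55 and 123 FPKM. The pituitary hormone genes Cga, Lhb and Tshb had means of 179, 10.1 and 8.04 FPKM in the same hypothalamus libraries, so Pomc does not tell hypothalamus from pituitary here.

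Promoters of 6 of the 9 genes were found in RefSeq's table for the rat assembly GRCr8. The 250 bases upstream of the annotated start are shown for 4 genes, to let the sequence be read beside the levels: Hpca and Reln, which were called higher in hippocampus, and Vip and Nos1, which were called in neither tissue. Capitals mark the core of the cAMP response element, TGACGT on either strand, and the TATA box, TATAAA on either strand. Hpca lies at chr5:146748359-146748608 on the minus strand, Reln at chr4:13628318-13628567 on the plus strand, Vip at chr1:44470230-44470479 on the plus strand and Nos1 at chr12:44371838-44372087 on the minus strand.
Hpca: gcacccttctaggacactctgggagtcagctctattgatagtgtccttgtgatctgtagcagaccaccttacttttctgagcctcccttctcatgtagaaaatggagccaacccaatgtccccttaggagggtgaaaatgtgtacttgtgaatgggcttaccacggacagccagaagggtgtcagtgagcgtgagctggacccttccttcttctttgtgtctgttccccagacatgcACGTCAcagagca
Reln: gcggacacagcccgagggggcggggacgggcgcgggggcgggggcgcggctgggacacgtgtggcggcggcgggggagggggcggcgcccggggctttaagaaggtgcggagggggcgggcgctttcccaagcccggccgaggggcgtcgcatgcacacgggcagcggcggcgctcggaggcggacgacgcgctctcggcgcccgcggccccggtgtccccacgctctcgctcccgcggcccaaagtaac
Vip: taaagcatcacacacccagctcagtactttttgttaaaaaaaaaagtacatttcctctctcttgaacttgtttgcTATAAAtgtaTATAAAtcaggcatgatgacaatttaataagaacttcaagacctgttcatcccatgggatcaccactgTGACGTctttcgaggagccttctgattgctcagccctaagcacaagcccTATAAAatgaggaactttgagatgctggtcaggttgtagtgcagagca
Nos1: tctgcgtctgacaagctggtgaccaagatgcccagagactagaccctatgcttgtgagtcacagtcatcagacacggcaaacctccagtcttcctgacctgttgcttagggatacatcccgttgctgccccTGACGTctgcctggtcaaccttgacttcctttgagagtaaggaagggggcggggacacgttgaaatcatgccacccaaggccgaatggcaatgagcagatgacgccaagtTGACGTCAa
The cAMP response element is the site through which cAMP signalling is known to drive the Vip gene. Its core was present in the Vip, Hpca and Nos1 windows and absent from those of Pvalb, Reln and Lhx6, and it occurred in 6.95% of all 33469 upstream windows of this length. In the Vip window its last base lay 92 bases before the start. The Nos1 window held 3 matches, of which 2 overlap as TGACGTCA, a palindrome that matches on both strands. A TATA box occurred in the Vip window alone of the 6, at 3 places of which the nearest ended 43 bases before the start, and in 12.9% of all windows. The Reln window consisted of G and C at 80% of its bases, above 98.9% of all windows, and held 4 matches to the GC box GGGCGG (either strand), which occurred in 30.5% of windows. These matches are descriptions of letters, and no factor binding was measured.

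Of the 9 genes, 4 were called between the tissues. Hpca, Cck and Reln were higher in hippocampus, and Calb2 was higher in hypothalamus. The background in this comparison was 28.0% of 10812 symbols tested called in either direction, 14.6% towards hippocampus and 13.4% towards hypothalamus. By the absence of overlap alone, 7 of the 9 separated the tissues, with Vip added on the hippocampal side and Calb1 and Nos1 on the hypothalamic side, against a background of 52.7%. Pvalb and Lhx6 overlapped. The background without overlap was 28.4% towards hippocampus and 24.3% towards hypothalamus. The median difference over the 9 genes was 0.42 on the log2 scale, and over all symbols tested it was 0.05. In bulk tissue, fewer cells of a type and less RNA per cell cannot be told apart, and tissue and table cannot be told apart either.

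**Figure D1:**
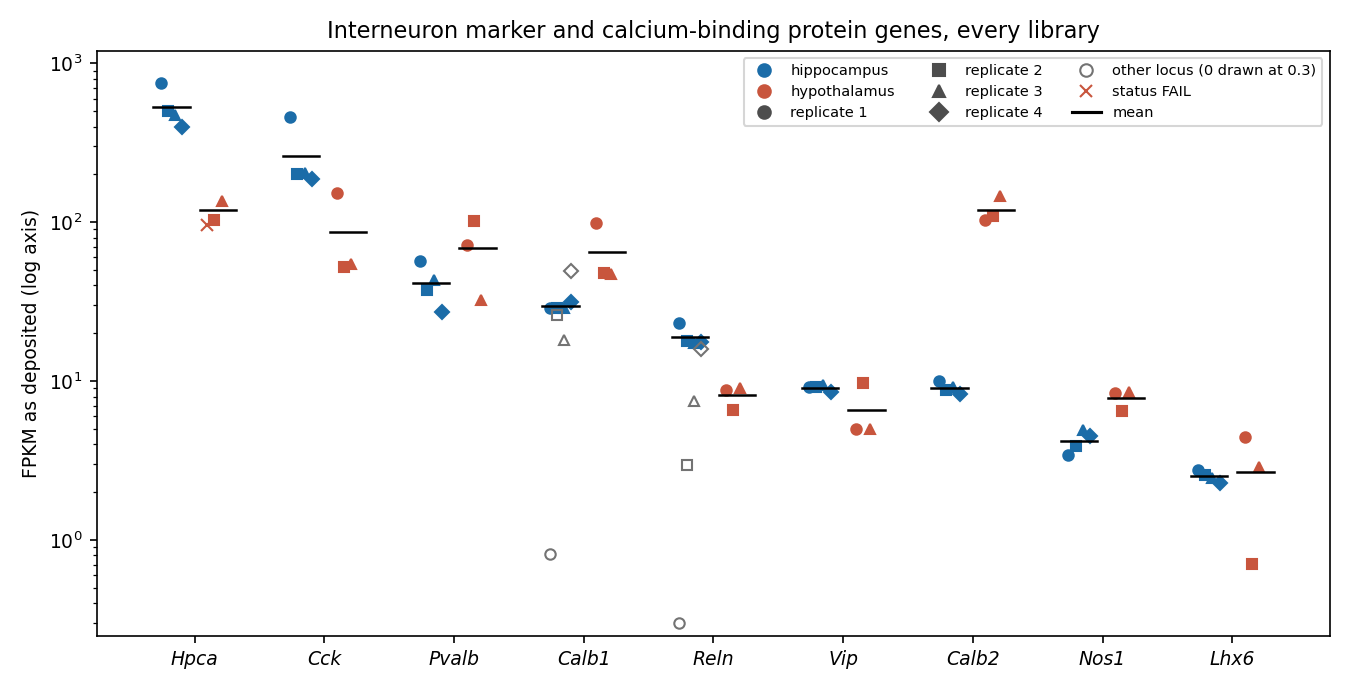
FPKM as deposited (log axis) of the 9 genes in every hippocampus (blue) and hypothalamus (red) library, with replicates as shapes, means as lines, a second locus of the same symbol as open grey shapes and a value with failed quantification as a cross. Calb2 sits near 9 FPKM in hippocampus and above 100 FPKM in all hypothalamus libraries, while Hpca and Cck show the opposite order.

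Calretinin transcripts showed the largest difference of the 9. Calb2 read 10.04, 8.73, 9.18 and 8.29 FPKM in hippocampus replicates 1 to 4, and 104, 110 and 146 FPKM in hypothalamus replicates 1 to 3. All hypothalamus libraries were far above all hippocampus libraries, and replicate 3 was the highest of the hypothalamus libraries. The means were 9.06 ± 0.747 FPKM (SD, n = 4) and 120 ± 23.0 FPKM (SD, n = 3). The rescaled difference, hippocampus minus hypothalamus, was −3.37 ± 0.14 on the log2 scale (SE over libraries), a 10.3-fold difference on the log2(value + 1) scale. It lay between −3.57 and −3.19 over 18 alternative settings.

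Calbindin transcripts came from 2 loci in the hippocampus table. The locus with the higher mean read 28.7, 28.8, 28.9 and 31.5 FPKM in replicates 1 to 4, and the other read 0.820, 26.1, 18.3 and 49.0 FPKM. The first locus was nearly level across libraries, whereas the other was near 0 in replicate 1 and highest in replicate 4. In hypothalamus the single Calb1 locus read 98.8, 47.8 and 47.5 FPKM, with replicate 1 at 2.07 times the mean of the others. Mean levels were 29.5 ± 1.35 FPKM (SD, n = 4) and 64.7 ± 29.5 FPKM (SD, n = 3), and the difference of −0.74 ± 0.36 did not reach 2-fold. It was 2-fold in FPKM as deposited, at −1.02. With the 2 hippocampal loci summed, the libraries read 29.6, 55.0, 47.1 and 80.6 FPKM, the difference was −0.02 and the tissues overlapped. Without replicate 1 of hippocampus the second locus became the higher one, at a mean of 31.1 FPKM, and the tissues overlapped as well. Without replicate 1 of hypothalamus the difference was −0.38 and the tissues did not overlap. Without replicate 1 of both tissues it was −0.43 and they overlapped. Whether Calb1 differs between the tissues thus rests on the choice of locus and on replicate 1.

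The order of the 2 paralogs was opposite in the tissues. In hippocampus, Calb1 at its higher locus exceeded Calb2 by 2.86 to 3.80 times within a library. With the Calb1 loci summed, at 29.6 to 80.6 FPKM, it was also above Calb2, at 8.29 to 10.04 FPKM, and by wider margins. In hypothalamus, Calb2 exceeded Calb1 by 1.05 to 3.08 times within a library, lowest in replicate 1.

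Parvalbumin transcripts did not separate the tissues. Pvalb read 57.3, 37.4, 43.3 and 27.4 FPKM in hippocampus and 72.0, 102 and 32.6 FPKM in hypothalamus. The hypothalamus libraries spanned a 3.14-fold range that covered most of the hippocampal one. The difference was −0.34 ± 0.56, smaller than its SE, and it changed sign to 0.03 without hypothalamus replicate 2. Without hypothalamus replicate 3 it was −0.83, and the tissues no longer overlapped. The SD over hypothalamus libraries, 0.83 in log2(FPKM + 1), was exceeded by 2.69% of 10757 symbols, whose median was 0.25.

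Hippocalcin, a neuronal calcium sensor that moves to membranes when it binds calcium, had the highest level of the 9 in hippocampus. Hpca read 755, 503, 471 and 397 FPKM there, with replicate 1 the highest. In hypothalamus, replicates 2 and 3 read 103 and 135 FPKM. The value listed for replicate 1, 96.4 FPKM, carried the status FAIL and was left out, so that n is 2 in hypothalamus. All hippocampus libraries were above all hypothalamus values, the failed one included. The means were 532 ± 155 FPKM (SD, n = 4) and 119 ± 23.3 FPKM (SD, n = 2), and the difference was 2.44 ± 0.26. With the failed value used as listed it was 2.50, and without replicate 1 of both tissues it was 2.25.

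The other EF-hand and calcium-binding genes were listed beside these 4. Of 32, all were found and 29 were tested, of which 9 were called higher in hippocampus, 6 higher in hypothalamus and 14 neither. Their median difference was 0.66, against 0.05 over all symbols, of which 14.6% were called higher in hippocampus and 13.4% in hypothalamus. Calm3 and S100b were among the most abundant. Calm3, a calmodulin gene, had means of 1204 and 467 FPKM in hippocampus and hypothalamus and was called higher in hippocampus. S100b, a glial calcium-binding protein gene, had 1028 and 1152 FPKM and overlapped. Among paralogs of Hpca, named after their values were seen, Hpcal4, Ncald and Vsnl1 lay higher in hippocampus without overlap, at differences of 0.84, 0.98 and 0.83 that did not reach 2-fold, and Hpcal4 overlapped in FPKM as deposited. With loci summed, Hpcal4 and Ncald were called higher in hippocampus. Hpcal1 was called higher in hypothalamus, with 34.6 ± 3.09 FPKM (SD, n = 4) in hippocampus and 144 ± 41.1 FPKM (SD, n = 3) in hypothalamus. In FPKM as deposited 7 of the 29 were called higher in hippocampus and 6 in hypothalamus, where 8.74% and 16.9% of all symbols were. With loci summed, 12 of the 29 were called higher in hippocampus and 6 in hypothalamus, beside 14.6% and 14.1% of all symbols.

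**Figure D2:**
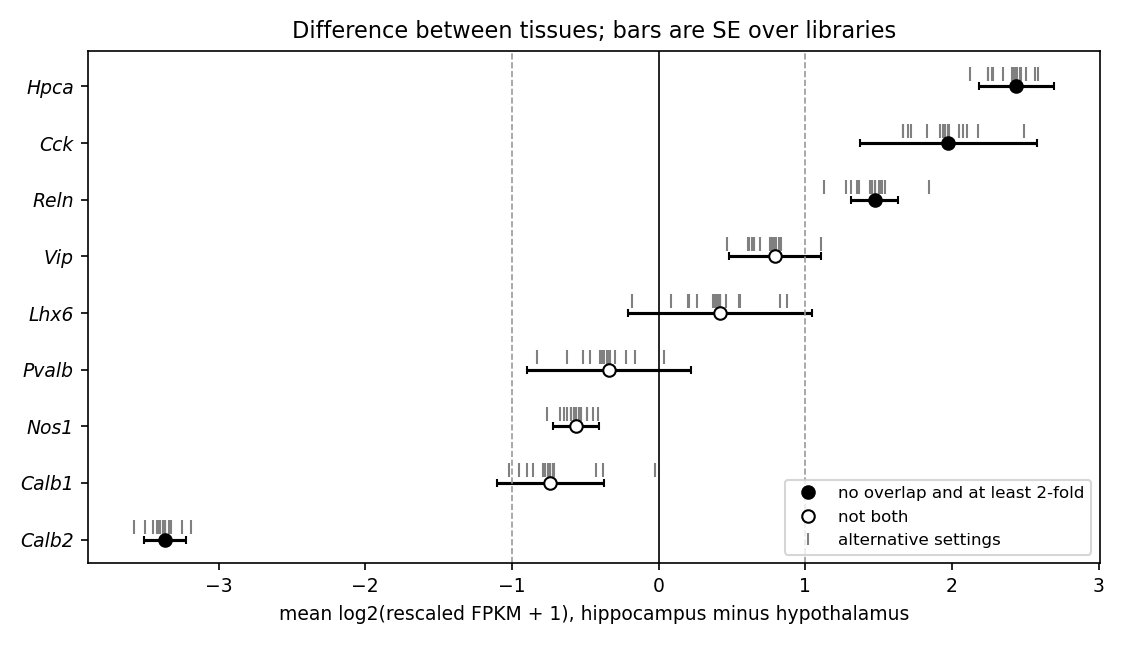
Mean log2(rescaled FPKM + 1) of hippocampus minus that of hypothalamus for each of the 9 genes, with SE over libraries; filled points meet the call, grey ticks are the 18 alternative settings and dashed lines mark 2-fold. Calb2 at −3.37 and Hpca at 2.44 lie farthest apart, and the ticks of Pvalb and Lhx6 fall on both sides of 0.

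Cholecystokinin is a peptide of basket cells in hippocampus, and its gene is also transcribed in many glutamatergic neurons. Cck read 457, 202, 204 and 186 FPKM in hippocampus and 153, 52.4 and 54.3 FPKM in hypothalamus. Replicate 1 was far above the other libraries in both tissues, while the remaining libraries were close to each other. Even so, the lowest hippocampus library was above the highest hypothalamus library. Mean levels were 262 ± 130 FPKM (SD, n = 4) and 86.6 ± 57.5 FPKM (SD, n = 3), and the difference was 1.97 ± 0.60. Without replicate 1 of both tissues the means were 197 ± 9.98 FPKM (SD, n = 3) and 53.3 ± 1.37 FPKM (SD, n = 2), and the difference was 2.18.

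The receptors of cholecystokinin differed in where they were detected. Cckar, the receptor that prefers the sulfated peptide, read 4.39 to 7.12 FPKM in hypothalamus and at most 0.171 FPKM in hippocampus, and was called higher in hypothalamus at a difference of −3.56. Cckbr, the main brain receptor, read 7.98, 4.45, 4.52 and 4.95 FPKM in hippocampus and 2.35, 4.41 and 5.52 FPKM in hypothalamus. It was not called, and the tissues overlapped in FPKM as deposited, under upper-quartile and median-of-ratios scaling and with loci summed. The tissue with more Cck transcript was the one with the lower Cckar level.

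Vasoactive intestinal peptide marks interneurons that contact other interneurons, and in hypothalamus the suprachiasmatic nucleus is its best known source. Vip read 9.18, 9.15, 9.42 and 8.55 FPKM in hippocampus and 4.99, 9.71 and 5.02 FPKM in hypothalamus. As deposited, hypothalamus replicate 2 was above every hippocampus library and the tissues overlapped, as they did under upper-quartile scaling. After rescaling to the same total they did not overlap, by a margin of 0.08 on the log2 scale, and the difference was 0.79 ± 0.32. It reached 2-fold, at 1.11, without hypothalamus replicate 2. Hippocampal Vip was among the least variable genes, with an SD of 0.05 in log2(FPKM + 1) that 98.0% of 10309 symbols exceeded.

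Of the receptors that bind VIP, Vipr1 read 1.82 to 2.44 FPKM in hippocampus and at most 0.286 FPKM in hypothalamus, and was called higher in hippocampus at 2.34 ± 0.16. Vipr2, the receptor through which VIP acts in the suprachiasmatic nucleus, read 0.740 to 0.988 FPKM in hippocampus and 2.36 to 3.12 FPKM in hypothalamus. Its difference of −1.10 ± 0.12 passed the call, but under upper-quartile and median-of-ratios scaling it did not. The 2 receptors thus had opposite directions. Adcyap1, the gene of the related peptide PACAP, was called higher in hypothalamus, at 3.59 ± 0.953 FPKM (SD, n = 4) in hippocampus and 45.8 ± 2.84 FPKM (SD, n = 3) in hypothalamus. Its receptor gene Adcyap1r1 had 48.8 ± 3.42 and 75.6 ± 1.81 FPKM and was not called.

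Reelin is a large glycoprotein that directs neuronal positioning during development and in the adult hippocampus is released mainly by interneurons and Cajal-Retzius cells. Reln read 23.2, 17.9, 17.3 and 17.7 FPKM at its higher hippocampal locus and 8.81, 6.62 and 9.06 FPKM in hypothalamus. Replicate 1 was the highest hippocampus library, and the tissues did not overlap. The means were 19.0 ± 2.78 FPKM (SD, n = 4) and 8.16 ± 1.34 FPKM (SD, n = 3), and the difference was 1.47 ± 0.16. Without replicate 1 of both tissues it was 1.44. A second hippocampal locus read 0, 2.98, 7.47 and 15.9 FPKM, at 0 in replicate 1 and highest in replicate 4, the same order as at the second Calb1 locus except for replicates 2 and 3. With loci summed the difference was 1.85. RefSeq lists 3 other genes that overlap the span of Reln, and whether fragments were assigned by strand is not given in the sources used here.

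Genes of the reelin pathway were measured alongside. Reelin binds the receptors encoded by Vldlr and Lrp8, and the signal passes through Dab1, which Fyn phosphorylates, to Crk and Crkl. Lrp8 was not analysed here. Vldlr had 24.1 ± 4.10 FPKM (SD, n = 4) in hippocampus and 14.6 ± 4.31 FPKM (SD, n = 3) in hypothalamus. Dab1 had 19.7 ± 4.46 and 9.46 ± 1.14 FPKM, and Fyn had 81.6 ± 7.07 and 45.8 ± 4.95 FPKM. These 3 genes were called higher in hippocampus like Reln, at differences of 1.03, 1.30 and 1.12. In FPKM as deposited none of the 3 reached 2-fold, at 0.71 for Vldlr, 0.97 for Dab1 and 0.82 for Fyn, and the Vldlr ranges overlapped. Vldlr also missed the call under upper-quartile and median-of-ratios scaling and with loci summed, and Fyn under upper-quartile scaling. Pafah1b1, which encodes the Lis1 protein, had 238 ± 67.8 and 85.2 ± 39.7 FPKM and was called higher in hippocampus. Crkl had the opposite direction, with 0.822 ± 0.264 FPKM in hippocampus and 4.42 ± 0.207 FPKM in hypothalamus. Crk, at 39.9 and 31.9 FPKM, and Itgb1, at 21.5 and 38.3 FPKM, were not called.

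Lhx6 had the lowest level of the 9 in both tissues. It read 2.75, 2.58, 2.46 and 2.28 FPKM in hippocampus, a narrow range, and 4.45, 0.707 and 2.88 FPKM in hypothalamus. The hypothalamus libraries spanned a 6.30-fold range around the hippocampal values. The difference was 0.42 ± 0.63, and it was −0.18 without hypothalamus replicate 2 and 0.87 without hypothalamus replicate 1, where the tissues no longer overlapped. Lhx8, a basal forebrain transcription factor gene named after its values were seen, read 3.55, 0.298 and 0.953 FPKM in the same hypothalamus libraries. This was the same order as Lhx6, and Lhx8 was at most 0.0786 FPKM in hippocampus. Other transcription factor genes listed for GABA neurons had no common order in these libraries. Nkx2-1 read 9.72, 14.6 and 16.2 FPKM and Dlx5 4.59, 7.83 and 7.73 FPKM, lowest in replicate 1. Sox6 read 4.20, 3.44 and 3.03 FPKM, highest in replicate 1. The summed level of 6 genes of striatum and neighbouring forebrain was 63.3, 125 and 122 FPKM in hypothalamus replicates 1 to 3, lowest where Lhx6 was highest. The part of adjoining tissue in the spread of Lhx6 was not tested.

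Nos1 encodes neuronal nitric oxide synthase, which makes nitric oxide in a class of interneurons in hippocampus and in several hypothalamic nuclei. It read 3.45, 3.93, 4.94 and 4.49 FPKM in hippocampus and 8.47, 6.47 and 8.54 FPKM in hypothalamus. All hypothalamus libraries were above all hippocampus libraries, under each of the scalings tried and with each library left out in turn. The means were 4.20 ± 0.650 FPKM (SD, n = 4) and 7.83 ± 1.18 FPKM (SD, n = 3), and the difference of −0.56 ± 0.16 stayed below 2-fold in all 18 alternatives. RefSeq lists 2 long non-coding genes that overlap the span of Nos1, 1 that overlaps Lhx6, and the coding gene Tmem54 at that of Hpca.

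Downstream of nitric oxide, soluble guanylate cyclase makes cGMP, which activates the kinases of Prkg1 and Prkg2. Of its subunits, Gucy1b3 had 25.3 ± 2.53 FPKM (SD, n = 4) in hippocampus and 43.4 ± 16.7 FPKM (SD, n = 3) in hypothalamus, and Gucy1a3 had 9.30 ± 2.31 and 6.82 ± 2.55 FPKM. Gucy1a2 had 2.75 ± 0.775 and 1.59 ± 0.419 FPKM. None of the 3 was called, although without replicate 1 of both tissues Gucy1a3 and Gucy1a2 were called higher in hippocampus. Prkg1 (1.09 and 0.967 FPKM), Prkg2 (1.68 and 4.40 FPKM) and Pde5a (3.06 and 2.58 FPKM) overlapped between the tissues after rescaling, and so did the endothelial synthase gene Nos3 (3.79 and 3.84 FPKM). Nos2, the inducible synthase gene, was at most 0.0909 FPKM in every library. Dlg4, whose product PSD-95 anchors neuronal nitric oxide synthase at synapses, was called higher in hippocampus, at 236 ± 39.3 and 127 ± 34.7 FPKM, the reverse of Nos1. In FPKM as deposited the Dlg4 difference was 0.90, and the call was also lost without replicate 1 of both tissues. Over all receptors and partners, 21 of 25 were tested, with a median difference of 0.59. Of these, 6 were called higher in hippocampus and 4 in hypothalamus, beside 14.6% and 13.4% of all symbols, and 11 were called in neither. In FPKM as deposited the counts were 2 and 4, and the shares of all symbols were 8.74% and 16.9%.

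Within hippocampus the genes fell in the order Hpca, Cck, Pvalb, Calb1, Reln, Vip, Calb2, Nos1 and Lhx6, from 532 to 2.52 FPKM. Neighbours whose library ranges overlapped were Hpca and Cck, Pvalb and Calb1, and Vip and Calb2. All other neighbours were separated. Within a library, Hpca exceeded Cck in all 4, by 1.65 to 2.49 times, while Pvalb exceeded Calb1 in 3 of 4 and Vip exceeded Calb2 in 3 of 4. This order takes the higher locus of Calb1 and Reln. With loci summed, Calb1 came to 53.1 ± 21.2 FPKM (SD, n = 4), above Pvalb, and its libraries (29.6 to 80.6 FPKM) overlapped those of Reln (20.8 to 33.6 FPKM). Within hypothalamus the order was Calb2, Hpca, Cck, Pvalb, Calb1, Reln, Nos1, Vip and Lhx6, from 120 to 2.68 FPKM. There the first 5 overlapped from one to the next, as did Reln, Nos1 and Vip, so that the ranges formed a high set, a middle set and Lhx6 alone. Within a library, Calb2 exceeded Hpca and Hpca exceeded Cck in both libraries with a valid Hpca value, and Reln exceeded Nos1 in all 3, by 1.02 to 1.06 times. The order of the other overlapping neighbours was not the same in every library. Calb2 went from seventh place in hippocampus to first in hypothalamus. By mean level, Hpca lay above 99.6% of all symbols in the hippocampus table, and Calb2 above 62.3% there and above 96.0% in the hypothalamus table.

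**Figure D3:**
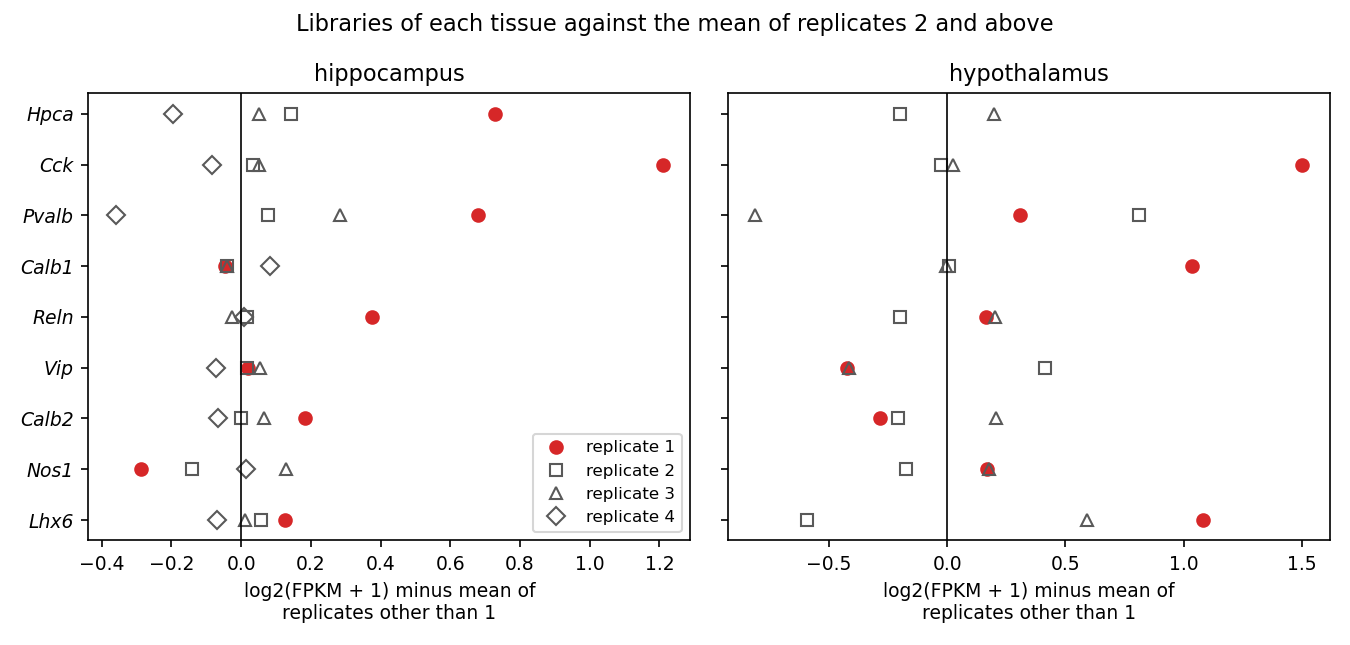
log2(FPKM + 1) of each library minus the mean of the replicates other than 1, for each of the 9 genes in hippocampus and in hypothalamus, with replicate 1 in red; the horizontal scales differ between the panels. Replicate 1 lies 1.21 above the others for Cck in hippocampus and 1.50 above in hypothalamus, and Hpca has no replicate 1 point in hypothalamus because its quantification failed.

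Replicate 1 was examined gene by gene, since the same number stood apart in each tissue. In hippocampus it was the highest library for 6 of the 9 genes (Pvalb, Calb2, Hpca, Cck, Reln and Lhx6), where 30.5% of 10309 symbols had replicate 1 highest. In hypothalamus it was the highest for 3 of the 8 genes measured in it (Calb1, Cck and Lhx6), where 44.3% of 10757 symbols did. Cck exceeded the highest other library 2.24 times in hippocampus and 2.82 times in hypothalamus. Of the 7008 symbols whose mean reached 5 FPKM in both tissues, 2 had replicate 1 at least 2 times above the highest other library in both, Cck and Tomm70a. This count was made after the Cck values were seen. The labels record no difference in handling of replicate 1, and they do not say whether libraries with the same number come from the same animal. The source of the Cck difference was not tested.

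Other genes of GABA neurons gave a frame for the 9. Of 40 listed, 38 were found and 37 tested, with a median difference of −0.56. Of the 37, 8 were called higher in hippocampus and 14 in hypothalamus, beside 14.6% and 13.4% of all symbols, and 15 were called in neither. Sst and Penk were among the most abundant. Sst, the somatostatin gene, had 222 ± 46.3 FPKM (SD, n = 4) in hippocampus and 432 ± 79.0 FPKM (SD, n = 3) in hypothalamus, without overlap at −0.67. Penk, the proenkephalin gene, had 26.6 ± 3.81 and 203 ± 13.8 FPKM and was called higher in hypothalamus. Gad1 and Gad2, the genes of GABA synthesis, named after their values were seen, had 70.3 and 40.7 FPKM in hippocampus against 128 and 171 FPKM in hypothalamus, and only Gad2 reached 2-fold. Higher Reln, Cck and Hpca in hippocampus stood beside lower levels of these 2 genes there. In FPKM as deposited, 5 of the 37 were called higher in hippocampus and 16 in hypothalamus, beside 8.74% and 16.9% of all symbols.

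**Figure D4:**
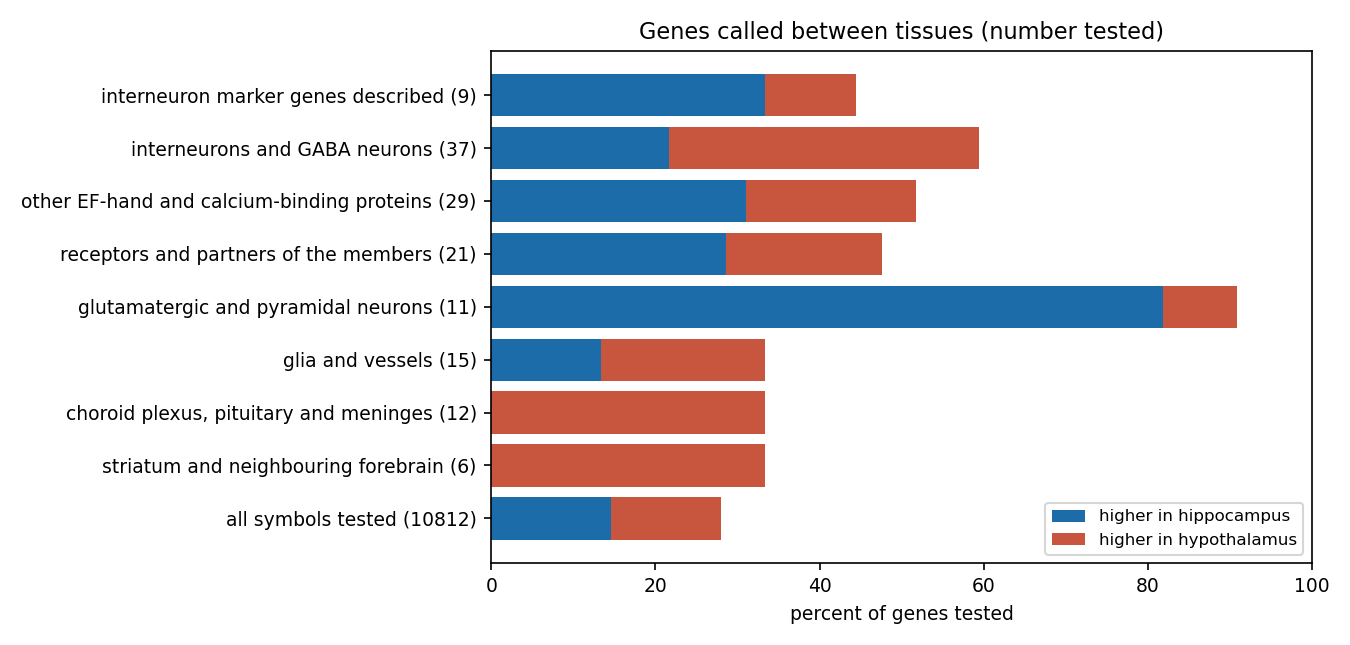
Percent of tested genes called higher in hippocampus (blue) or hypothalamus (red) for the 9 genes, for 7 gene lists and for all 10812 symbols tested, with the number tested in parentheses. Of the 11 glutamatergic genes tested, 9 were higher in hippocampus, and all symbols together reach 28.0%.

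Markers of other cell types were read against the 28.0% of all symbols called. Of 11 tested genes of glutamatergic and pyramidal neurons, 9 were called higher in hippocampus and 1, Slc17a6, higher in hypothalamus, 90.9% in all. Over the 10 of them measured in every library, the summed level was 1972, 1318, 1198 and 1211 FPKM in hippocampus replicates 1 to 4, highest in replicate 1, where Hpca and Cck were also highest. In hypothalamus replicates 1 to 3 it was 232, 221 and 293 FPKM, and replicate 1, the highest for Cck, was not the highest. Single genes in that sum differed in order. Nrgn read 99.4, 149 and 207 FPKM in these libraries, lowest in replicate 1. Slc17a6 read 78.1, 27.4 and 27.5 FPKM, highest in replicate 1 like Cck. Camk2a is not in these sums, since its hypothalamus replicate 3 value did not have the status OK. The highest in hippocampus were Camk2a, at 1707 FPKM (n = 4) and 99.2 FPKM (n = 2), Slc17a7, and Nrgn, at 443 and 152 FPKM. In hypothalamus Nrgn, Camk2a and Slc17a6 (44.3 FPKM) were the highest. Of 15 glial and vessel genes, 2 were called higher in hippocampus and 3 in hypothalamus, and Mbp and Mobp were among the most abundant. Their summed level was 4177 to 4799 FPKM and 6508 to 8382 FPKM. Genes of choroid plexus, pituitary and meninges varied most, with sums of 4759, 61.5, 6044 and 2117 FPKM in hippocampus replicates 1 to 4, mostly Ttr. The sums were 294, 662 and 389 FPKM in hypothalamus, where Cga, a pituitary hormone subunit gene, had a mean of 179 FPKM and Prl was listed at 0. Of 12 tested in that list, none was called higher in hippocampus and 4 were called higher in hypothalamus. Of the 6 genes of striatum and neighbouring forebrain, with Ppp1r1b, Rgs9 and Drd2 the highest in hypothalamus, 2 were called higher in hypothalamus. The share called was 33.3% in each of the last 3 lists, near that of all symbols. The part of these cell types in the levels of the 9 genes was not tested.

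For each of the 4 called genes, the symbols with the most similar pattern were sought by the root-mean-square distance of centred log2(rescaled FPKM + 1) over the libraries, among 6937 or 6938 symbols with a single locus per table. Calb2 was nearest to P2rx2, a gene of an ATP-gated channel subunit, at a distance of 0.11 over 7 libraries. Hpca was nearest to LOC297756 and Bai2, both at 0.08 over 6 libraries. Reln was nearest to Acp1 and Svop, both at 0.11. Cck had no close counterpart: its nearest symbols, LOC685322 and Tymp, lay at 0.31 and 0.34. The patterns are dominated by the difference between tissues, and the distances are descriptions.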

How the data were processed

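Poly-A RNA of hippocampus and hypothalamus was sequenced on an Illumina HiSeq instrument, per the labels' protocols. The authors deposited FPKM, 1 table per tissue, with a status word per value. The submitters' processing notes name TopHat, TopHat2, Bowtie, Bowtie2, Cufflinks, Cuffdiff and the build rn5, with no versions. The annotation, strand setting and library normalization are not given in the sources used here. Locus numbering differs between the tables, which were treated as separate runs. A planned limma test was conditional on a single normalization and was not run.

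Symbols were matched as listed, or through RefSeq (GRCr8) synonyms for the gene lists. Of several loci of a symbol, that with the greatest mean was used. Values with a status other than OK were set to missing, and at least 2 values per tissue and a mean of at least 1 FPKM in either were required. A pseudocount of 1 was used. Named genes were the 9 members, the receptors and partners, the 3 highest genes of each other list, and the 2 nearest patterns of each called member. Hpcal1, Hpcal4, Ncald, Vsnl1, Gad1, Gad2, Lhx8, Nkx2-1, Dlx5, Sox6, Slc17a6, Lhb, Tshb, Prl and Tomm70a fall outside this rule and were named after their values were seen. Values of 4 genes that the rule names are not reported here. The members and lists were chosen with earlier results of these data known. Depth is unknown, so no counting interval was computed, and replicate libraries are not stated to come from separate animals. Computations used Python 3.11.15, numpy 2.4.6 and pandas 2.3.3.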

Additional observations from a re-analysis of the deposited data

Results flagged for a closer look

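A library stood apart among the 4 hippocampus libraries for 3 of the 9 genes, by Dixon's ratio (the distance from the extreme library to its neighbour as a share of the range), where more than 0.829 was required. Chance flags about 1 in 20 groups, and the genes come from the same libraries. The share of all symbols that pass this ratio was not computed, so the count has no background here. For Cck the highest library was replicate 1, at a ratio of 0.933, with 457 FPKM against at most 204 FPKM. For Reln it was replicate 1, at 0.907, with 23.2 FPKM against at most 17.9 FPKM. With its 2 loci summed, replicate 4 was the highest, at 33.6 FPKM. For Calb1 it was replicate 4, at 0.953, with 31.5 FPKM against at most 28.9 FPKM, a gap made large by the closeness of the other 3 values. The 3 hypothalamus libraries were not assessed by this ratio.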

How the results depend on the processing

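The calls of Calb2, Cck and Reln held in all 18 alternatives, which were other pseudocounts, scalings, filters, summed loci, libraries left out and failed values used as listed. Hpca was called in 16 and could not be compared in the other 2, where 1 valid hypothalamus value was left. With no minimum difference, 7 of the 9 genes and 52.7% of all symbols were called, in place of 4 and 28.0%. With a library left out in turn, 3 to 4 of the 9 genes were called, 27.2% to 32.0% of all symbols were, and hippocampus took 48.5% to 53.1% of calls. FPKM as deposited moved the median difference of all symbols from 0.05 to −0.21 and the hippocampal share of calls from 52.3% to 34.1%. Without any filter on low values, 19.8% of 15886 symbols were called. No paired analysis was possible because the labels do not tie same-numbered libraries of the tissues to an animal and no test was run across tables treated as normalized separately. Unknown depth limits what can be said of values near 0.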
